A study of Drosophila melanogaster with 2 samples.

Results

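The genes described here are serpins, which are inhibitors of serine proteases, and the clip-domain and related serine proteases that act in the same extracellular cascades. They were taken by name. The inhibitors were every gene whose symbol in the platform annotation is Spn followed by a digit, plus necrotic (nec). The proteases were chosen from a list of 16 symbols. Of 8224 genes with a ratio on both arrays, 25 were members, 17 of them inhibitors and 8 proteases. The RefSeq gene table holds 27 Spn genes, of which 16 were measured. No probe of the table carried the single symbol gd, modSP, MP1, ndl, snk, sphinx1, sphinx2 or Tequila, and these 8 proteases were not analysed here.

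The study compared total RNA of Drosophila melanogaster embryos on 2 two-colour arrays, A and B, with the dyes swapped between them. Wild-type embryos are called hemocyte plus in the labels and serpent (srp) mutants hemocyte minus, and for array A both are labelled unwounded. Serpent encodes a GATA transcription factor that embryonic hemocytes and the fat body need, so the mutants lack more than blood cells. The allele, the age of the embryos and whether the arrays held separate RNA extracts are not stated in the sources used here. The p-values rest only on the spread between these 2 arrays, that of the gene combined with that of all genes.

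In insects a microbe or a wound sets off a chain of secreted serine proteases in the hemolymph, each made as an inactive precursor and cut by the one before it. One chain ends with Spätzle, the ligand of the receptor Toll. Another ends with prophenoloxidase, the enzyme that makes melanin, and a related chain sets the dorsoventral axis of the early embryo. Serpins trap active proteases and are used up in doing so, which keeps such cascades in check.

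Values are log2 of the size of the deposited dye ratio, turned by the dyes in the labels and centred on the median of each array. The dye in the numerator is not stated. Cy3 was taken as numerator because the markers of blood cells then lie on the hemocyte plus side, and every sign turns if it was Cy5. A positive value therefore lies on the hemocyte side and a negative one on the opposite side. An error after ± is the SD of the 2 arrays, while the p of limma uses a spread drawn toward that of all genes. A gene passed if the Benjamini-Hochberg adjusted p of limma, over all 8224 genes, was below 0.05. Over all genes the arrays differed by 0.17 in the median.

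The proteases leaned to the hemocyte side and the serpins went both ways. Of the 8 proteases, 3 passed on the hemocyte side (grass, Hayan and ea) and none on the opposite side. Over all genes, 5.27% passed on the first side and 8.18% on the second. At an unadjusted p below 0.05 there were 5 proteases, all on the hemocyte side, where 12.2% of all genes met that limit. Of the 17 serpins, 2 passed on the hemocyte side (Spn42De and Spn27A) and 2 on the opposite side (Spn88Ea and Spn43Ab), and 7 had an unadjusted p below 0.05, against 27.5% of all genes on either side. Tested against a 1.2-fold difference rather than 0, grass, Spn42De and Spn88Ea passed, and Hayan, ea, Spn27A and Spn43Ab did not. The median log2 ratio was 0.41 for the proteases, -0.03 for the serpins and 0.00 for all genes. Above 0 were 6 of the 8 proteases and 7 of the 17 serpins, against 50.2% of all genes. The difference between the medians, 0.44, was not tested, since the members were chosen by name with earlier results known.

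**Figure D1:**
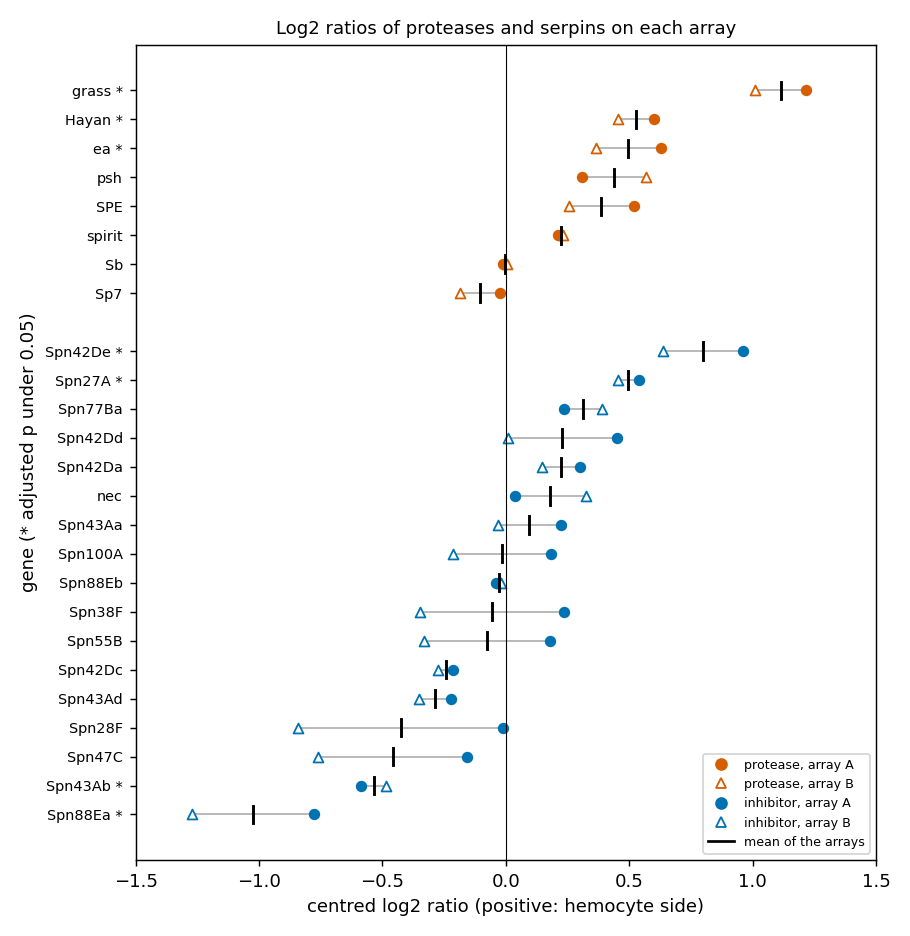
Centred log2 ratio (horizontal axis) of each of the 8 proteases and 17 serpins on array A (circles) and array B (triangles), with the mean of the 2 arrays as a black mark and an asterisk for genes with adjusted p below 0.05. The protease grass lies farthest to the hemocyte side at 1.11 and the serpin Spn88Ea farthest to the opposite side at -1.02.

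The protease with the highest ratio was grass (CG5896), a clip-domain protease that passes the signal from microbial pattern recognition to the enzyme that cuts Spätzle. Its log2 ratio was 1.22 on array A against 1.01 on array B, so both arrays lay well to the hemocyte side. The mean of 1.11 ± 0.15 (SD, n = 2 arrays) is a 2.16-fold difference (limma adjusted p = 0.00267). It ranked 87 of 8224 from the hemocyte side. The gene had 2 probes that gave nearly the same result, 1.19 and 1.24 on array A and 1.01 and 1.01 on array B. It was the only member at least 2-fold to one side on both arrays, and with the arrays scaled to one spread it fell short of that rule, while it still passed limma. Of all genes, 1.17% met that rule on the hemocyte side and 1.82% opposite.

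The remaining measured proteases of the immune branch of the Toll pathway had smaller ratios and did not pass. Persephone (psh), which is cut by proteases of invading microbes, had 0.31 on array A against 0.57 on array B. Its mean was 0.44 ± 0.18 (1.36-fold, limma adjusted p = 0.0695), with a 95% interval of 0.14 to 0.73 before adjustment. The call depended on the setting: psh passed without centring (adjusted p = 0.0364) and with a robust prior (0.0462). SPE, the enzyme that cuts Spätzle in the immune response, had 0.52 on array A and 0.25 on array B, with a mean of 0.39 ± 0.19 (1.31-fold, limma adjusted p = 0.0992). For spirit, another clip-domain protease of this branch, the arrays gave 0.21 and 0.23, a mean of 0.22 ± 0.02 with adjusted p = 0.251 in limma. All 4 proteases of this branch that were measured were above 0 on both arrays, and 1 of the 4 passed. Over all genes, 68.6% had the same sign on both arrays, counting either sign, and 5.27% passed on the hemocyte side.

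Hayan and Sp7 act in melanization. Hayan (CG6361), which is needed for the activation of prophenoloxidase at wounds, had 0.60 on array A against 0.45 on array B, both positive. The mean log2 ratio of 0.53 ± 0.10 was a 1.44-fold difference on the hemocyte side (limma adjusted p = 0.0314). Sp7, also known as a melanization protease, lay slightly on the other side, with -0.02 on array A against -0.19 on array B. The mean, -0.10 ± 0.11, missed the threshold (limma adjusted p = 0.608), and the 95% interval ran from -0.38 to 0.17.

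Easter (ea, CG4920) is the protease that cuts Spätzle around the early embryo and so sets ventral fates. Its log2 ratio was 0.63 on array A against 0.36 on array B, both on the hemocyte side. The mean of 0.50 ± 0.19 (1.41-fold) passed narrowly (limma adjusted p = 0.0478). The call ended when the probe of largest change stood for each gene (0.0591), when each probe was tested on its own (0.0617) and without re-amplified or duplicate probes (0.0595). With a single probe, Easter kept its ratio in these settings. Stubble (Sb), a membrane-bound protease of epithelial morphogenesis, was at -0.01 on array A and at 0.01 on array B, a mean of 0.00 ± 0.01 with a 95% interval from -0.27 to 0.26 (limma adjusted p = 0.986).

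Among the serpins, Spn42De (CG9460) had the highest ratio, 0.96 on array A against 0.64 on array B. The mean of 0.80 ± 0.23 was a 1.74-fold difference on the hemocyte side (limma adjusted p = 0.0114). Spn27A (CG11331) restrains prophenoloxidase activation in the hemolymph and Easter in the early embryo. On array A it had 0.54 and on array B 0.46, a mean of 0.50 ± 0.06 and a 1.41-fold difference (limma adjusted p = 0.0349). That value comes from 1 probe. A further probe, annotated to both Spn27A and Cyp12a4 and therefore not used, had 0.18 on array A against 0.11 on array B. With that probe averaged into Spn27A the mean was 0.32 and did not pass (limma adjusted p = 0.124), an alternative chosen after seeing the data. The ratios of Easter and of Spn27A without the shared probe were 0.50 each, and both calls were lost under some settings. A relation between the 2 ratios was not tested.

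On the opposite side lay Spn88Ea (CG18525), a serpin known as a negative regulator of Toll signalling and for its part in wing expansion. It had -0.78 on array A against -1.27 on array B. The mean of -1.02 ± 0.35 was a 2.03-fold difference (limma adjusted p = 0.00801), although array A by itself was below 2-fold. Spn43Ab (CG1865) had -0.59 on array A and -0.49 on array B, a mean of -0.54 ± 0.07 and a 1.45-fold difference (limma adjusted p = 0.0282). Of the 4 serpins that passed, Spn27A and Spn43Ab had array values within 0.10 of each other, whereas Spn42De and Spn88Ea differed by 0.32 and 0.49 between the arrays.

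None of the other 13 serpins passed. Spn77Ba, which restrains melanization in the trachea, had 0.24 on array A and 0.39 on array B, a mean of 0.31 ± 0.11 (limma adjusted p = 0.141). Necrotic, the classical inhibitor of immune Toll activation, had 0.04 on array A and 0.32 on array B, a mean of 0.18 ± 0.20 (limma adjusted p = 0.403). Spn42Dd, known from the response to fungi, had 0.45 on array A and 0.01 on array B, a mean of 0.23 ± 0.31 (limma adjusted p = 0.354). Spn42Da, which encodes an inhibitor of furin-like proteases in the secretory pathway, had 0.30 and 0.15, a mean of 0.22 ± 0.11 (limma adjusted p = 0.266). These 4 serpins had means above 0 without passing.

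Of the remaining 9 serpins, only Spn43Aa had a mean above 0. Spn43Aa had a mean of 0.10 ± 0.18, Spn100A of -0.02 ± 0.28, and Spn88Eb of -0.03 ± 0.01 with the smallest gap between arrays of any serpin (0.02). Spn38F lay at -0.05 ± 0.41, Spn55B at -0.08 ± 0.36 and Spn42Dc at -0.24 ± 0.04. Spn43Ad, the only serpin with 2 probes, lay at -0.29 ± 0.09, and its probes were both negative, with -0.10 and -0.35 on array A and -0.23 and -0.47 on array B. Spn28F had a mean of -0.43 ± 0.59 and Spn47C of -0.46 ± 0.43. The adjusted p in limma of these 9 genes ran from 0.137 for Spn47C to 0.950 for Spn100A. Before adjustment, the 95% interval lay below 0 for Spn47C (-0.86 to -0.06) and Spn43Ad (-0.56 to -0.01). That of Spn77Ba, given above, lay above 0 (0.04 to 0.59). The 95% intervals of the serpins, before adjustment, reached between 0.26 and 0.49 to each side of the mean. Smaller changes in any 1 serpin could therefore not be told from 0 with 2 arrays, even before adjustment. The adjusted threshold asked for more, and the smallest fold of any gene that passed was 1.36.

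Several serpins differed between the arrays more than most genes did. Spn28F was at -0.01 on array A and -0.84 on array B, a gap of 0.83 that was wider than that of 97.7% of genes. Spn47C had -0.16 on array A and -0.76 on array B, Spn38F had 0.24 and -0.35, and Spn55B had 0.18 and -0.33. The gap was at least 0.5 for these 4 of the 17 serpins, against 8.69% of all genes. The arrays had opposite signs for 4 serpins (Spn43Aa, Spn100A, Spn38F and Spn55B) and for 1 protease (Sb). Opposite signs were not more frequent among them than among all genes, where the share was 31.4%. Array A was above array B in 13 of the 17 serpins and 5 of the 8 proteases, against 54.5% of all genes. As a result the serpin median was 0.18 on array A against -0.22 on array B, while the protease median was 0.41 on array A against 0.31 on array B. In a dye swap a gap between the turned arrays is what a difference between the dyes would leave, and its part in these values was not tested.

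**Figure D2:**
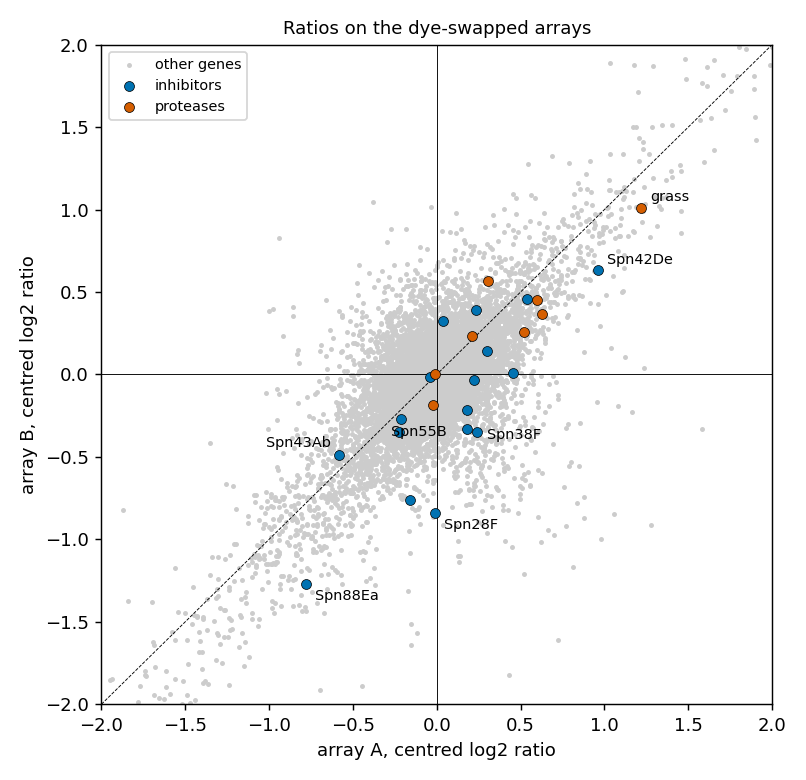
Centred log2 ratio on array A (horizontal axis) against array B (vertical axis) for all genes (grey), serpins (blue) and proteases (orange), with the dashed line marking equal values. Axes end at 2 in either direction, which leaves 66 of 8224 genes outside. Proteases lie within 0.265 of the line, and Spn28F, Spn38F, Spn47C and Spn55B lie below it by 0.51 to 0.83.

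Many of these genes stand side by side in the genome, and neighbours did not share their ratios in every case. In the order of protein-coding genes in the RefSeq table, Spn42Dc, Spn42Dd and Spn42De follow each other directly, with Spn42Da 1 gene away. Within this cluster the log2 ratios ran from -0.24 for Spn42Dc to 0.80 for Spn42De, and Spn42De exceeded Spn42Dc by 1.17 on array A and by 0.91 on array B. Spn43Ab, Spn43Ad and nec also follow each other, with Spn43Aa 2 genes away. Here the adjacent Spn43Ab and Spn43Ad both lay below 0 on each array, with means of -0.54 and -0.29. In this second cluster nec exceeded Spn43Ab by 0.62 on array A and by 0.81 on array B. The adjacent pair Spn88Ea and Spn88Eb was split too, with Spn88Ea lower than Spn88Eb on both arrays, at -0.78 against -0.04 on array A and -1.27 against -0.02 on array B. Hayan and psh, adjacent proteases on the X chromosome, had similar means of 0.53 and 0.44, with Hayan the higher on array A and psh on array B. These differences between neighbours were not tested. The probes have names of cDNA clones, and whether a probe of a clustered serpin also binds transcripts of its neighbours was not examined.

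**Figure D3:**
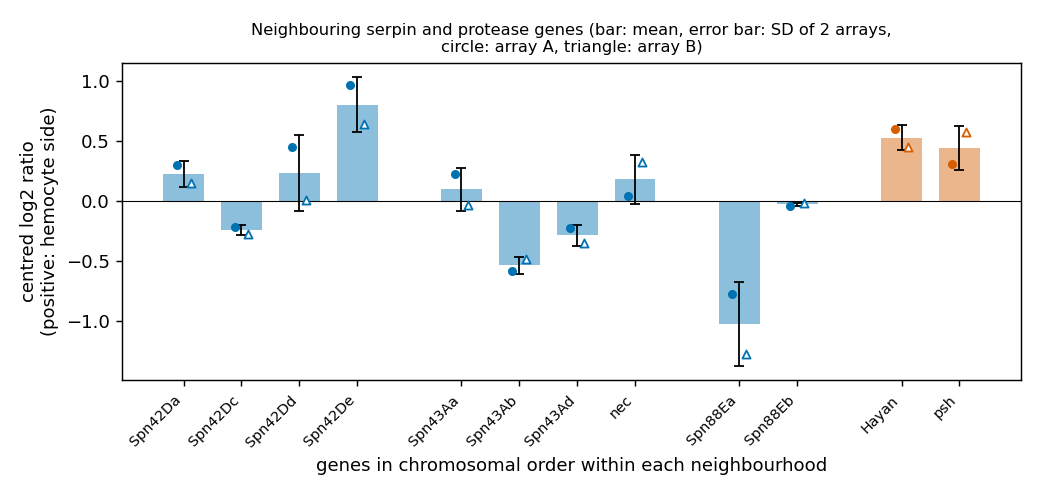
Mean centred log2 ratio (bars, with the SD of 2 arrays as error bars) and the values on array A (circles) and array B (triangles) for 4 neighbourhoods, serpins in blue and proteases in orange. The serpin clusters hold members on both sides of 0, from -0.24 to 0.80 in the first and from -0.54 to 0.18 in the second, while Hayan and psh are both above 0.

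Other clip-domain and related serine protease genes, listed by name beside the members, also leaned to the hemocyte side. Of 32 listed names, 15 matched a measured gene, and 12 of these had a mean above 0, against 50.2% of all genes. On the hemocyte side 4 passed and on the opposite side 2, against 5.27% and 8.18% of all genes. Among the unmatched names, CG11066 is another name of the gene scaf and CG2056 of the member spirit. The list median was 0.32. CG3505 had the highest ratio, with 1.37 on array A against 1.08 on array B (mean 1.22 ± 0.21, limma adjusted p = 0.0025), close in size to grass. CG1773 (0.91 ± 0.03), CG9372 (0.57 ± 0.06) and masquerade (mas, 0.54 ± 0.19), which encodes a protease homologue without catalytic activity, also passed. The homologue gene scarface (scaf), known from closure of the embryonic epidermis, lay at 0.32 ± 0.02 and did not pass (limma adjusted p = 0.124). On the opposite side CG8172 passed at -1.34 ± 0.03 and CG4998 at -1.06 ± 0.55. The 4 probes of CG4998 disagreed: the probes marked as re-amplified had means of -2.13 and -2.13, the others -0.13 and 0.16. Without the marked probes CG4998 lay at 0.01 ± 0.89 and did not pass (limma adjusted p = 0.986).

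Inhibitors outside the serpin family also lay on both sides. Of 18 listed names, 10 matched a measured gene. Of these, 3 had a mean above 0 and 7 below, against 50.2% of all genes above 0, and the median was -0.30. To each side 2 passed, where over all genes 5.27% passed on the hemocyte side and 8.18% opposite. The list also holds the peptidase gene Ance (0.22 ± 0.05) and crim (-0.06 ± 0.11), which are not known as inhibitors, and neither passed. Both are kept in these counts and in the median. The papilin gene Ppn, whose matrix protein carries Kunitz inhibitor domains and is made by hemocytes, passed at 2.39 ± 0.10, as did fat-spondin at 2.01 ± 0.05. On the opposite side were Timp, an inhibitor of metalloproteinases, at -0.68 ± 0.07 and CG3604 at -0.88 ± 0.09. CG10031 lay at -0.38 ± 0.07 and did not pass (limma adjusted p = 0.0781).

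Genes downstream of the cascades were measured in part. Of 21 names listed for the Toll pathway, 12 matched a measured gene, and some of the 21 are synonyms of each other. Past the threshold were 2 on each side, against 5.27% of all genes on the hemocyte side and 8.18% opposite. The median was 0.03. The receptor gene Toll (Tl) had 0.56 on array A against 0.74 on array B (mean 0.65 ± 0.13, limma adjusted p = 0.0161). The antimicrobial peptide gene Mtk passed at 0.60 ± 0.11, and Drs, the classical Toll target of adult flies, lay at 0.42 ± 0.08 without passing (limma adjusted p = 0.0588), and passed without centring (0.0328) and with a robust prior (0.0419). The ligand gene spz lay at 0.35 ± 0.04 (limma adjusted p = 0.0963). The NF-kappaB gene Dif (-0.68 ± 0.12) and the Bomanin peptide gene BomS2 (-1.17 ± 0.10) passed on the opposite side, and dl, the NF-kappaB gene of the dorsoventral branch, lay at -0.09 ± 0.18.

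Of 14 names listed for melanization, 8 matched a measured gene. On the hemocyte side 4 passed and on the opposite side 1, against 5.27% and 8.18% of all genes, and the median was 0.49. The 3 prophenoloxidase genes had means of 4.87 (PPO1), 3.71 (PPO2) and 2.55 (PPO3), far above the 0.53 of Hayan and the 0.50 of the inhibitor Spn27A. Pu, which is needed for the tyrosine hydroxylase cofactor, passed at 0.77 ± 0.05. The tyrosine hydroxylase gene ple passed on the opposite side at -1.09 ± 0.00, and the dopa decarboxylase gene Ddc lay at -0.34 ± 0.21 (limma adjusted p = 0.141).

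**Figure D4:**
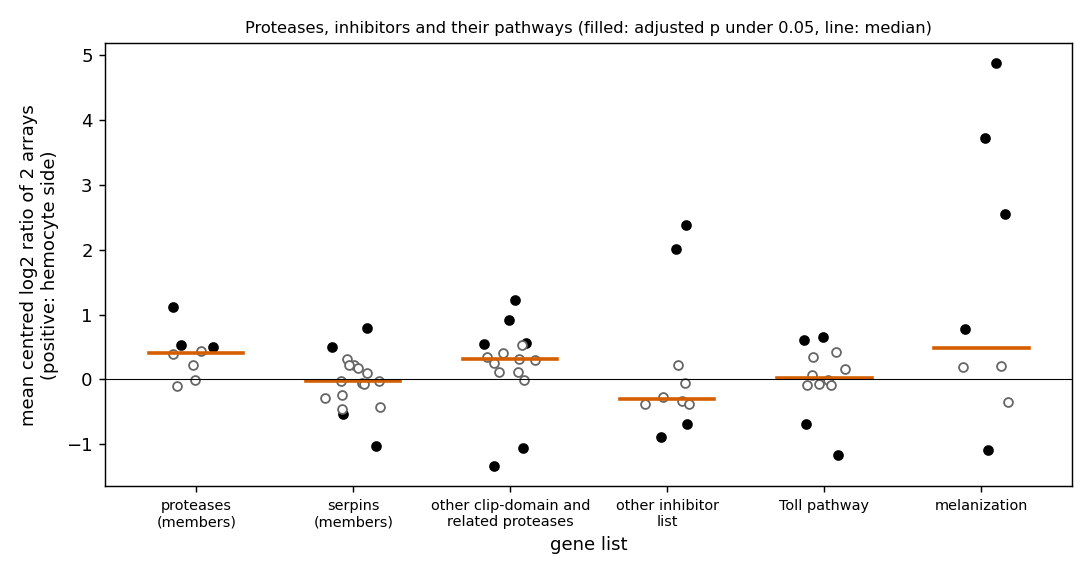
Mean centred log2 ratio of the 2 arrays (vertical axis) for each measured gene of 6 lists, with genes of adjusted p below 0.05 filled and the median of each list as an orange line. The proteases and the other clip-domain list have medians of 0.41 and 0.32, the serpins and the Toll pathway list -0.03 and 0.03.

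Markers of several cell types moved with the genotype in the same RNA. The numerator was chosen so that blood cell markers lie on the hemocyte side, so their side was set beforehand. The result is which other markers share that side. Over all genes, 5.27% passed on the hemocyte side and 8.18% opposite. Of 14 plasmatocyte markers 11 passed on the hemocyte side, with means from -0.03 to 2.39 and eater (-0.03), the collagen IV gene vkg (0.22) and srp itself (0.26 ± 0.15) not past the test. Among those that passed, the probes of Glt disagreed, with means of 1.52 and 0.08. For NimC1 the probe without a mark in its name had 0.39, and the marked ones had 1.35 and 1.28. Of 4 measured crystal cell markers 2 passed on the hemocyte side, PPO1 and PPO2, which the melanization list also holds, and klu (0.28) and peb (0.17) did not. Of 7 fat body markers 5 passed on the hemocyte side (range -0.15 to 1.33), with the late fat body gene Lsp2 at -0.15. All 4 measured muscle markers passed on the opposite side (range -1.32 to -0.76), as did 3 of 4 cuticle markers (range -2.70 to 0.24). Their part in the ratios of the proteases and serpins was not tested. In RNA of whole embryos, fewer cells of a type and less RNA per cell cannot be told apart. The files hold ratios and no channel intensities, so no level of any gene or marker is known.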

How the data were processed

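RNA of hemocyte plus and hemocyte minus embryos was reverse transcribed and labelled through amino-allyl groups, per the labels. Each probe has 1 deposited value per array. The deposited values run from -31.17 up to -0.01 for array A (median -0.989) and from -30.98 up to -0.01 for array B (median -1.021), and look like linear dye ratios written with a minus sign. For the numerator dye, the background correction and the normalization by the authors, the method is not stated in the sources used here. Of 12144 probes, 9917 had 1 gene symbol, 625 several and 1602 none. Only the first kind was used, 9793 of them with a value on both arrays. The log2 size was turned by dye, centred on the array median and averaged over the probes of a gene. The fit was an intercept in limma 3.58.1 (R 4.3.3, lmFit with eBayes), with 1 residual and 5.01 prior degrees of freedom and a prior SD of 0.168, and it was tested on simulated data. The number of arrays limits the precision. Symbols were checked by gene identifier against RefSeq (Release 6 assembly) for 9746 of the 9917 probes with 1 symbol, and none changed. The other 171 were not found there and kept the annotated symbol. The members and lists were chosen with earlier results of these data known. All measured members are described. Of each other pathway list, the genes past the threshold are named, plus a few of the others, and cell type markers are given as counts and ranges. Alternatives covered the centring, scale, probes, numerator, prior, null hypothesis and single arrays.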

Additional observations from a re-analysis of the deposited data

How the results depend on the processing

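With array A alone or array B alone there is no test. The serpin median then ran from -0.22 to 0.18, and so changed sign, and the protease median from 0.31 to 0.41. The number of serpins at least 2-fold to the opposite side ran from 0 to 1 on single arrays (Spn88Ea on array B), against 0 on both arrays. Tested against a 1.2-fold difference, 1 serpin passed on each side (Spn42De and Spn88Ea) and 1 protease on the hemocyte side (grass), while Spn27A, Spn43Ab, Hayan and ea no longer passed, nor did Tl, Mtk, Dif, Timp, mas and CG9372 of the other lists (adjusted p from 0.0658 for Timp to 0.276 for mas). The count of proteases at least 2-fold on both arrays on the hemocyte side, 1 as reported, was 0 with scaled arrays and 2 with each probe alone, since grass has 2 probes. In the same setting 2 probes of the melanization list passed on the opposite side, both of ple, and without re-amplified or duplicate probes 1 other clip-domain gene passed there, since CG4998 then lay at 0.0101 and 1 of its probes alone at 0.16 (the cause of the gap between its probes was not tested). Without centring Spn100A lay at 0.00577 and Sb at 0.0193, which turned their signs. With Cy5 as numerator all signs turned by construction. Then 0 proteases passed on the positive and 3 on the negative side, 0 and 1 were at least 2-fold on both arrays, and the medians were -0.41 for proteases and 0.0287 for serpins. The melanization list had 1 positive and 4 negative calls and the other clip-domain list 2 and 4. The ratios of the members were then -0.80 (Spn42De), -0.50 (Spn27A), -0.31 (Spn77Ba), -0.23 (Spn42Dd), -0.22 (Spn42Da), -0.18 (nec), -0.0952 (Spn43Aa), 0.0172 (Spn100A), 0.0287 (Spn88Eb), 0.0546 (Spn38F), 0.076 (Spn55B), 0.24 (Spn42Dc), 0.29 (Spn43Ad), 0.43 (Spn28F), 0.46 (Spn47C), 0.54 (Spn43Ab), 1.02 (Spn88Ea), -1.11 (grass), -0.53 (Hayan), -0.50 (ea), -0.44 (psh), -0.39 (SPE), -0.22 (spirit), 0.00371 (Sb) and 0.10 (Sp7). Those of the other named genes were -0.22 (Ance), 1.17 (BomS2), 0.38 (CG10031), -0.91 (CG1773), -1.22 (CG3505), 0.88 (CG3604), 1.06 (CG4998), 1.34 (CG8172), -0.57 (CG9372), 0.0577 (crim), 0.34 (Ddc), 0.68 (Dif), 0.0887 (dl), -0.42 (Drs), 0.0267 (eater), -2.01 (fat-spondin), 0.15 (Lsp2), -0.54 (mas), -0.60 (Mtk), 1.09 (ple), -2.39 (Ppn), -4.87 (PPO1), -3.71 (PPO2), -2.55 (PPO3), -0.77 (Pu), -0.32 (scaf), -0.35 (spz), -0.26 (srp), 0.68 (Timp), -0.65 (Tl), -0.22 (vkg), -0.28 (klu) and -0.17 (peb). No paired analysis was possible because the arrays form a single group. Signal over background is unknown.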
